A study of Mus musculus with 6 samples.

Results

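The transcripts described here are 32 genes of the unfolded protein response and the heat shock response, out of 17030 genes in the deposited table. They were chosen by name, as a list of chaperones, folding helpers and their regulators, and each of the 32 symbols had a row. By compartment, 17 work in or signal from the endoplasmic reticulum (ER), 12 in the cytosol and nucleus, and 3 in the mitochondrial matrix. RNA was sequenced from SCC7, a cultured line of mouse squamous carcinoma. Radiotherapy of 9 Gy was given to the cells of 3 libraries (irradiated), and the cells of the other 3 had no treatment (control). Both groups were the same line in the same high-glucose medium with serum, and the labels put all 6 libraries at day 0. How long after irradiation the cells were collected is not stated. Nothing in the labels says whether the libraries of a group came from separate cultures, and p-values measure only the spread between these libraries, which may be technical.

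Values are FPKM, fragments scaled by transcript length and by the total of the library, so levels of different genes are compared per length. The sums of FPKM were 652691 to 663489 in irradiated libraries and 693961 to 982553 in controls. The number of reads behind each value is unknown. The controls varied more than the irradiated libraries: in log2(FPKM + 1), the SD of the median chaperone was 0.07 among irradiated libraries and 0.36 among controls, and that of the median gene 0.08 and 0.30. Control 3 stood apart from controls 1 and 2, so results are also given against each control and without control 3. Of 7 squamous epithelial markers, Krt5, Krt14, Epcam, Cdh1 and Trp63 averaged under 1 FPKM. Their summed level, carried by Krt8 and Krt18, was 484 to 496 FPKM in irradiated libraries and 1715, 1890 and 699.6 FPKM in controls 1 to 3. Summed fibroblast markers were at 196 to 220 FPKM in irradiated libraries and 142 to 243 FPKM in controls. Summed leukocyte markers, with Ptprc under 1 FPKM, reached 5.74 FPKM in irradiated libraries and 4.54 FPKM in controls, and summed endothelial markers reached 0.51 FPKM in irradiated libraries and 0.63 FPKM in controls. The part of these marker levels in the results below was not tested. In such bulk libraries, fewer cells of a type and less RNA per cell cannot be told apart.

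The unfolded protein response is the signalling system by which cells adjust the folding capacity of the ER. Unfolded proteins in the ER draw the HSP70 chaperone BiP (Hspa5) away from the sensors IRE1 (Ern1), ATF6 and PERK. IRE1 splices the messenger of Xbp1 and ATF6 is cut to a nuclear fragment, and both factors raise genes for ER chaperones and for ER-associated degradation. In the cytosol, heat shock factor 1 (Hsf1) takes the equivalent part and induces HSP70, HSP90, small heat shock proteins and their partners. Mitochondria fold imported proteins with a matrix HSP70 and with the chaperonin pair HSP60 and HSP10.

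RefSeq promoter windows of build GRCm38.p6, from 250 bases before to 50 after the start of transcription, were matched for 24 of the 32 genes, not for Atf6, Hyou1, Manf, Hspa8, Hsp90aa1, Hsp90ab1, Hsf1 and Hspa9. Both strands were searched for the ER stress element, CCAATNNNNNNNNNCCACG, the site at which ATF6 acts together with NF-Y. It occurred in 5 of the 14 ER genes with a window (Hspa5, Hsp90b1, Dnajc3, Pdia6 and Creld2) and in none of the 8 cytosolic and 2 mitochondrial genes with one, against 0.137% of all 27025 genes with a window. These stretches are shown because the element they share is found in so few promoters. Each is written 5′ to 3′ on the strand of its gene, with the fixed letters of the element in capitals, read on the opposite strand in Creld2 and in the second match of Hsp90b1. All 30 bases of the Hspa5 stretch also lie in an annotated exon of Hspa5.
Hspa5 (chr2:34772020-34772049, plus strand): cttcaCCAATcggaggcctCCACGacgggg
Hsp90b1 (chr10:86705510-86705664, minus strand): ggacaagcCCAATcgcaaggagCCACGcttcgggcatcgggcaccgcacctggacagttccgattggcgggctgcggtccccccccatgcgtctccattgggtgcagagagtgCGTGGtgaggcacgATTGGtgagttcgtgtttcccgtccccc
Dnajc3 (chr14:118937814-118937931, plus strand): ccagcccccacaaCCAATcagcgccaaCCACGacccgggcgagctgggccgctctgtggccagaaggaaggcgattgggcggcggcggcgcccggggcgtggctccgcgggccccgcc
Pdia6 (chr12:17266471-17266544, plus strand): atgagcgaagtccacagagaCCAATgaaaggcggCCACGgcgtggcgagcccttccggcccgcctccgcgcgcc
Creld2 (chr15:88819506-88819645, plus strand): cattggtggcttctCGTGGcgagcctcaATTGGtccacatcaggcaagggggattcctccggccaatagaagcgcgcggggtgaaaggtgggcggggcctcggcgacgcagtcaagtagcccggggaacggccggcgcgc

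The 2 parts of the element are common letters: CCAAT occurred in the windows of 41.1% of all genes and of 18 of the 24, and CCACG in 35.5% and in 20 of the 24, overlapping the full element where both belong to it. The UPR element TGACGTGG was in 0.714% of all genes and in none of the 24. The heat shock element, searched as GAANNTTCNNGAA on both strands, was in 0.662% of all genes and in Hspd1, Hspe1 and Hsph1. Hspd1 and Hspe1, which encode HSP60 and HSP10, lie on opposite strands of chromosome 1 with neighbouring starts. Hspd1 has 2 windows: 215 bases lie between the start of one and that of Hspe1, and the same letters lie in it and in the window of Hspe1, whereas the other, whose start lies within Hspe1, holds no match. That stretch is shown because both genes have it near a start, and all 30 bases also lie in an annotated exon of Hspd1. Capitals mark the alternating units of 2 overlapping matches.
Hspe1 and Hspd1 (chr1:55088053-55088082, strand of Hspe1): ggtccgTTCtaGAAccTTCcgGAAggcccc
A match is a description of these letters, and a window without one says nothing about the factor. The genes were listed by name as members of these responses, so their shares beside all genes are a description and not a test.

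Few chaperone transcripts passed the test between irradiated and control cells. Of the 32 genes, 31 passed the filter of at least 1 FPKM in at least 3 libraries, with Hspa1a the exception. Among these 31, Hspa1b, the stress-inducible HSP70, rose, and Dnajc3, a J-domain partner of BiP, fell in irradiated cells (limma adjusted p below 0.05 over all genes tested). The calls over all 11103 genes tested were 12.0% in either direction, 9.24% higher and 2.77% lower, so 2 of 31 is no larger a share than that of all genes. At an unadjusted p below 0.05 there were 5 of 31 chaperones and 4251 of 11103 genes. The median log2 fold change, irradiated minus control, was 0.06 over the chaperones and 0.17 over all genes. Trimmed-mean scaling (a common factor for each library that centres most genes on no difference) moved the median of all genes to -0.01, and with it Hspa1b was at 0.66 and Dnajc3 at -0.68. The plot of levels by library shows the irradiated points of most genes close together and within the wider spread of the controls.

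**Figure D1:**
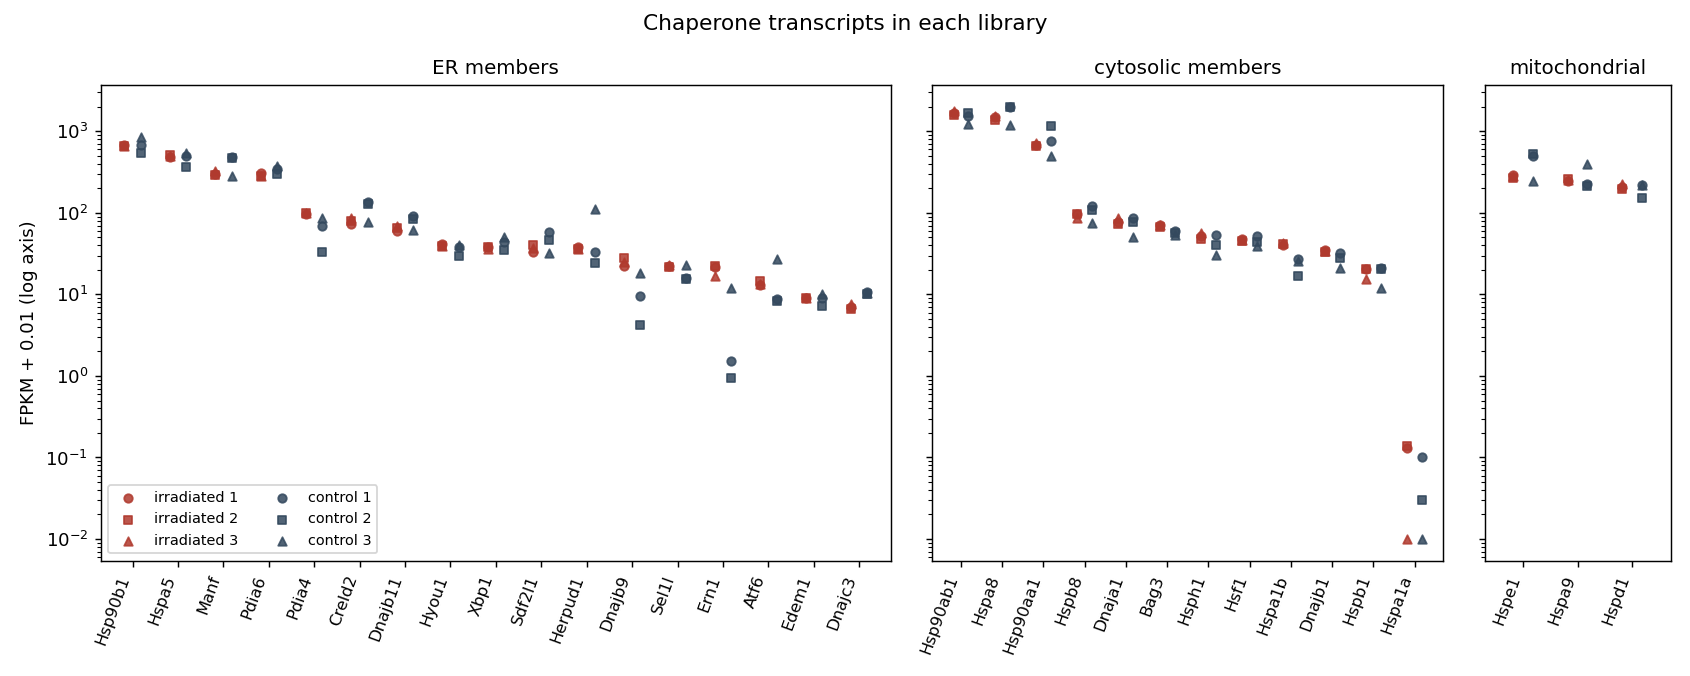
FPKM (plus 0.01, log axis) of each of the 32 genes in the 3 irradiated libraries (red) and the 3 control libraries (dark blue), by compartment and in order of the irradiated mean. Hspa1b stands higher in all irradiated libraries and Dnajc3 lower, and Ern1, Herpud1 and Dnajb9 show the widest spread among controls of the 31 genes tested.

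For 17 of the 31 genes, all 3 irradiated values lay inside the range of the 3 controls, against 28.6% of all genes tested. The values of the groups did not overlap for 7 chaperones, 6 of them higher in irradiated libraries (Ern1, Dnajb9, Pdia4, Hspa1b, Dnajb1 and Bag3) and 1 lower (Dnajc3). Over all genes tested 45.4% did not overlap, 31.8% higher and 13.7% lower.

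In the ER, Ern1, the kinase and RNase IRE1 that senses unfolded proteins, measured 21.6, 22.2 and 16.9 FPKM in irradiated libraries 1 to 3, against 1.53, 0.94 and 12.0 FPKM in controls 1 to 3. Every irradiated library was above every control, but on a log scale control 3 lay much nearer to the irradiated libraries than to the other controls. The log2 fold change of 2.40 (SE 0.68) was the greatest among the 31 chaperones and did not pass the test (limma adjusted p = 0.0609). It was 3.06, 3.44 and 0.70 against control 1, 2 or 3 alone, and 3.25 without control 3 (limma adjusted p = 6.02e-06), a setting in which 69.1% of all genes were called. Ern1 lies on chromosome 11, 106397620 to 106487796 (GRCm38.p6, NCBI gene 78943).

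Xbp1, the factor whose messenger IRE1 splices, had 38.3, 38.6 and 36.1 FPKM in irradiated libraries and 44.3, 34.6 and 49.9 FPKM in controls, and the irradiated values lay within the control range (log2 fold change -0.17, SE 0.16, limma adjusted p = 0.437). Gene totals do not separate spliced from unspliced Xbp1. Atf6, the sensor that becomes a transcription factor after cleavage, had 13.2, 14.6 and 13.6 FPKM in irradiated libraries and 8.72, 8.26 and 26.8 FPKM in controls. Its irradiated values stood above controls 1 and 2 and below control 3, and its difference took a negative sign after quantile normalization, trimmed-mean scaling and the length and GC correction, and without control 1 or 2.

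Dnajb9, the J-domain protein ERdj4 that recruits BiP to IRE1, measured 22.1, 27.9 and 24.8 FPKM in irradiated libraries, against 9.45, 4.19 and 18.3 FPKM in controls. The groups did not overlap, and the order of the controls was that seen for Ern1, with control 3 the highest and control 2 the lowest. The log2 fold change of 1.35 (SE 0.44) did not pass (limma adjusted p = 0.08), and was 1.31, 2.32 and 0.42 against control 1, 2 or 3 alone. Dnajb9 was called higher without control 3 (1.81, limma adjusted p = 0.000439), as were 45.8% of all genes.

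The most abundant chaperones of the ER lumen did not pass the test. Hspa5, which encodes BiP, had 491, 515 and 501 FPKM in irradiated libraries and 494, 363 and 536 FPKM in controls (log2 fold change 0.13, SE 0.18, limma adjusted p = 0.599). Hsp90b1, the ER form of HSP90 known as GRP94, had 677, 664 and 662 FPKM in irradiated libraries and 685, 536 and 857 FPKM in controls (-0.03, SE 0.20). The irradiated values of both genes lay inside the control range. Hyou1, a large HSP70 that acts as a nucleotide exchange factor for BiP, averaged 39.6 ± 1.35 FPKM in irradiated cells and 36.0 ± 5.47 FPKM in control cells (SD, n = 3 each).

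Dnajc3, also called p58IPK, was the ER gene that passed the test. It measured 6.93, 6.57 and 7.68 FPKM in irradiated libraries, against 10.7, 10.1 and 10.5 FPKM in controls. Here the controls were close to one another, and every irradiated library lay below all of them. The log2 fold change was -0.50 (SE 0.12, limma adjusted p = 0.0469), with -0.53, -0.47 and -0.51 against control 1, 2 or 3 alone. The call lay close to the threshold. It was lost without any filter, with the filter at 5 FPKM and with a pseudocount of 0.1 (limma adjusted p = 0.05, 0.0537 and 0.0514). It was also lost with a block for the sample number (0.118), where 2.70% of all genes were called. Without control 1 or 2 (0.161 and 0.0774) it was lost too, with 1.63% and 4.96% of all genes called. The same held without irradiated library 1, 2 or 3 (0.217, 0.218 and 0.168), with 0.516% to 0.911% of all genes called. The log2 fold change of Dnajc3 stayed between -0.46 and -0.91 over all alternatives. Dnajc3 lies on chromosome 14, 118937932 to 118981702 (NCBI gene 100037258).

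Manf, Dnajb11 and Sdf2l1 were below controls 1 and 2 and near control 3 in irradiated libraries, and none passed the test. Manf, a small secreted ER protein that binds BiP, had 298, 293 and 323 FPKM in irradiated libraries and 491, 468 and 284 FPKM in controls (log2 fold change -0.40, SE 0.23, limma adjusted p = 0.23). Dnajb11, the J-domain protein ERdj3, had 59.5, 64.8 and 69.0 FPKM in irradiated libraries and 91.3, 84.5 and 61.1 FPKM in controls (-0.27, SE 0.18). Sdf2l1, a partner of ERdj3, averaged 37.0 ± 3.73 FPKM in irradiated cells and 45.5 ± 12.7 FPKM in control cells (SD, n = 3 each). All 3 were called lower without control 3, as were 23.3% of all genes, and Manf was at -0.05 after quantile normalization.

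Among the genes for disulfide formation none passed. Pdia4, a disulfide isomerase, was higher in every irradiated library, at 97.8, 98.3 and 100.2 FPKM, against 68.6, 33.1 and 87.4 FPKM in controls. The controls spread 2.64-fold and the irradiated libraries 1.02-fold, and the log2 fold change of 0.75 (SE 0.34) did not pass (limma adjusted p = 0.148). Pdia6, a related isomerase, went the other way in sign, with 305, 279.9 and 281 FPKM in irradiated libraries and 341, 297 and 374 FPKM in controls (-0.22, SE 0.14, limma adjusted p = 0.282). Creld2, a disulfide isomerase-like protein and known marker of ER stress, had 73.1, 79.9 and 87.4 FPKM in irradiated libraries and 137, 128 and 76.7 FPKM in controls (-0.46, SE 0.24, limma adjusted p = 0.188). For Creld2 as for Manf, control 3 was near the irradiated values and controls 1 and 2 were well above them.

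The 3 genes of ER-associated degradation lay inside the control range in all irradiated libraries. Herpud1, a scaffold of the retrotranslocation complex, measured 38.2, 36.0 and 36.2 FPKM in irradiated libraries and 33.3, 24.0 and 111 FPKM in controls. Control 3 was 4.63-fold above control 2, and the sign depended on it: the log2 fold change was -0.28 (SE 0.52) with all controls and 0.37 without control 3 (limma adjusted p = 0.0435). Without control 3, 45.8% of all genes were called higher. Sel1l, the membrane adaptor of the HRD1 ligase, averaged 22.3 ± 0.35 FPKM in irradiated cells and 18.2 ± 4.27 FPKM in control cells. Edem1, a lectin that hands misfolded glycoproteins to degradation, averaged 9.00 ± 0.0757 FPKM in irradiated cells and 8.79 ± 1.41 FPKM in control cells (SD, n = 3 each).

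In the cytosol, Hspa1b was the gene that passed the test. It measured 39.9, 42.1 and 42.9 FPKM in irradiated libraries, against 27.2, 16.8 and 25.4 FPKM in controls, with no overlap. The log2 fold change was 0.85 (SE 0.19, limma adjusted p = 0.0397), and 0.60, 1.26 and 0.69 against control 1, 2 or 3 alone. The call was lost after trimmed-mean scaling (limma adjusted p = 0.0517), without any filter (0.0526) and with a block for the sample number (0.0831). It was also lost without control 1 (0.103) and without irradiated library 1, 2 or 3 (0.191, 0.201 and 0.169). Of all genes, 2.70% were called with the block, 1.63% without control 1 and 0.516% to 0.911% without 1 irradiated library. The log2 fold change of Hspa1b ranged from 0.65 to 0.98 over all alternatives. Hspa1b (chromosome 17, 34956429 to 34959238, NCBI gene 15511) has a near-identical neighbour, Hspa1a, and 62.3% of the 50-base windows of its longest transcript also occur in transcripts of other genes, most of all Hspa1a. Hspa1a was at 0.12, 0.13 and 0 FPKM in irradiated libraries and 0.09, 0.02 and 0 FPKM in controls, so the deposited values place nearly all signal of the pair on Hspa1b, and how the authors divided reads between the copies is not stated.

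The constitutive chaperones of the cytosol were the most abundant of the 32. Hsp90ab1, the constitutive HSP90, measured 1656, 1584 and 1782 FPKM in irradiated libraries and 1522, 1695 and 1223 FPKM in controls (log2 fold change 0.19, SE 0.18, limma adjusted p = 0.448, and 0.74 with adjusted p = 0.0107 after quantile normalization). Hspa8, the constitutive HSP70, had 1488, 1383 and 1562 FPKM in irradiated libraries and 2013, 1980 and 1189.8 FPKM in controls (-0.19, SE 0.24). Hsp90ab1 was the more abundant in all irradiated libraries and in control 3, and Hspa8 in controls 1 and 2. Hsp90aa1, the inducible HSP90, was the third most abundant in both groups, at 682, 668 and 725 FPKM in irradiated libraries and 764, 1177 and 505 FPKM in controls. Shares of 51.4% of the windows of Hspa8 and 58.5% of those of Hsp90aa1 also occur in other genes, as do 51.6% of those of Hspb1, 44.8% of Hspd1 and 18.7% of Dnaja1, so the values of these genes are uncertain.

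No other inducible member of the cytosol passed the test. Bag3, a co-chaperone that links HSP70 to selective autophagy, measured 71.8, 68.0 and 71.6 FPKM in irradiated libraries and 59.3, 56.0 and 53.0 FPKM in controls, with no overlap (log2 fold change 0.33, SE 0.12, limma adjusted p = 0.0925). Dnajb1, the J-domain protein HSP40, measured 34.6, 33.1 and 33.9 FPKM in irradiated libraries and 32.5, 28.1 and 21.0 FPKM in controls (0.33, SE 0.17, limma adjusted p = 0.199). For Bag3 all 3 controls were close together, whereas for Dnajb1 control 1 came within 0.06 of the irradiated mean on the log2 scale. Hsph1, the HSP110 exchange factor, averaged 52.0 ± 5.03 FPKM in irradiated cells and 41.4 ± 11.9 FPKM in control cells. Dnaja1, a farnesylated J-domain protein, averaged 78.5 ± 6.25 FPKM in irradiated cells and 71.3 ± 17.9 FPKM in control cells (SD, n = 3 each).

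The small heat shock proteins Hspb1 and Hspb8, which hold unfolded clients, overlapped between the groups. Hspb1 averaged 18.7 ± 2.93 FPKM in irradiated cells and 18.0 ± 5.14 FPKM in control cells. Hspb8, the partner of Bag3, averaged 92.9 ± 4.89 FPKM in irradiated cells and 101 ± 23.7 FPKM in control cells (SD, n = 3 each). Hsf1 itself, whose activity is set by its protein rather than its transcript, had 48.0, 45.2 and 46.5 FPKM in irradiated libraries and 51.5, 44.5 and 39.0 FPKM in controls (log2 fold change 0.06, SE 0.14). None of these 3 passed the test.

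In mitochondria, no transcript passed. Hspe1, the HSP10 lid of the chaperonin, had 288, 265 and 286 FPKM in irradiated libraries and 493, 534 and 243 FPKM in controls (log2 fold change -0.52, SE 0.30, limma adjusted p = 0.238). Hspd1, the HSP60 barrel, had 209, 194 and 225 FPKM in irradiated libraries and 219, 152 and 219.9 FPKM in controls (0.10, SE 0.18). Hspe1 in irradiated cells was thus well under controls 1 and 2 but above control 3, while Hspd1 stayed near controls 1 and 3. Hspa9, the matrix HSP70 mortalin, measured 245, 263 and 255 FPKM in irradiated libraries and 225, 213 and 392 FPKM in controls (-0.07, SE 0.25), where control 3 was the only library to exceed the irradiated ones.

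Set against each control in turn, the compartments took different signs. The median log2 difference of the ER genes was 0.00, 0.32 and -0.05 against control 1, 2 or 3, that of the 11 cytosolic genes -0.13, 0.03 and 0.45, and that of the 3 mitochondrial genes -0.07, 0.25 and -0.08. The medians over all genes were 0.18, 0.29 and 0.07. The irradiated mean exceeded control 3 for all 11 cytosolic genes tested, control 1 for 4 of them and control 2 for 6. In the ER it exceeded control 3 for 7 of 17, control 1 for 9 and control 2 for 11. Over all 11103 genes tested it exceeded control 3 for 6488, control 1 for 6787 and control 2 for 7050. Among the controls, control 3 was the lowest control for 10 of the 11 cytosolic genes and the highest for 12 of the 17 ER genes. The order of the controls was not counted over all genes. With all controls the medians were -0.03 in the ER, 0.17 in the cytosol and -0.07 in mitochondria, and after trimmed-mean scaling -0.23, -0.03 and -0.27. As a share of the summed FPKM of a library, the cytosolic genes made up 0.612% to 0.684% in irradiated libraries and 0.465% to 0.541% in controls, with no overlap. Their FPKM sums did overlap, at 4060 to 4509 in irradiated libraries and 4751, 5244 and 3225 in controls 1 to 3. The shares also carry the library totals, 652691 to 663489 in irradiated libraries and 878514, 982553 and 693961 in controls 1 to 3. The ER genes made up 0.339% to 0.344% in irradiated libraries and 0.213% to 0.376% in controls, and the mitochondrial genes 0.109% to 0.116% in irradiated libraries and 0.0915% to 0.123% in controls. No test of a difference between compartments was made.

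**Figure D2:**
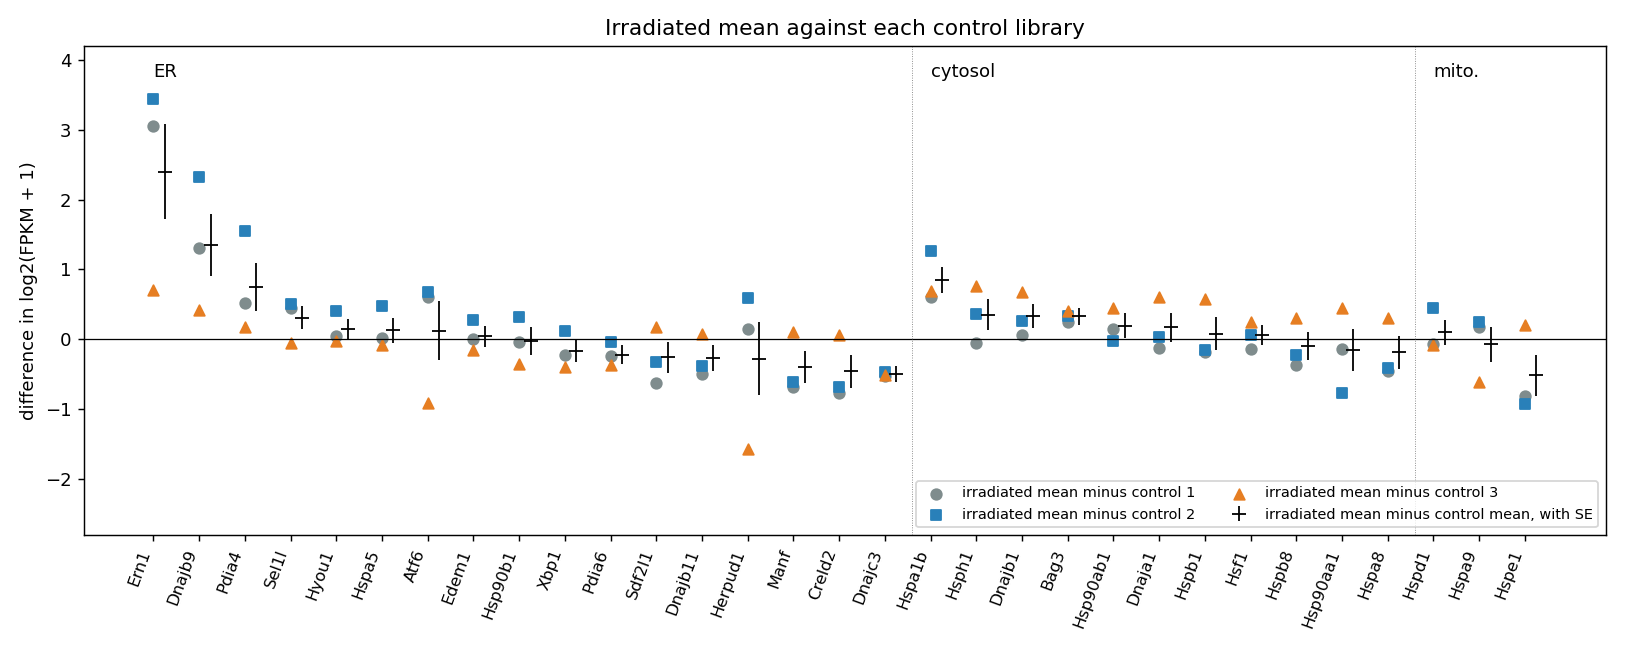
Difference in log2(FPKM + 1) between the irradiated mean and each control library alone (coloured points), with the difference from the mean of all controls and its SE (black), for the 31 genes tested. Cytosolic genes lie above 0 against control 3, and Herpud1 and Atf6 change sign between controls.

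Without control 3, 8 chaperones were called higher and 9 lower, 54.8% of the 31 genes against 69.1% of all genes (45.8% higher, 23.3% lower). In the ER these were 6 higher (Atf6, Ern1, Dnajb9, Herpud1, Pdia4 and Sel1l) and 5 lower (Dnajb11, Sdf2l1, Creld2, Manf and Dnajc3). Bag3 and Hspa1b were called higher in the cytosol, with Hspa8, Hsp90aa1 and Hspb8 lower, and Hspe1 was called lower in mitochondria. ER genes therefore stood on both sides, among them the partners of BiP.

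Of the 5 genes with an ER stress element shown above, Dnajc3 alone passed the test. Their log2 fold changes were 0.13 for Hspa5, -0.03 for Hsp90b1, -0.50 for Dnajc3, -0.22 for Pdia6 and -0.46 for Creld2. All 5 were negative after trimmed-mean scaling (-0.07 to -0.68), after the length and GC correction (-0.15 to -0.91) and without control 2 (-0.03 to -0.52). The median of all 17 ER genes was negative in these settings too, at -0.23, -0.23 and -0.20, so the sign was not particular to the 5. After quantile normalization Hspa5, Hsp90b1 and Pdia6 were positive, at 0.55, 0.37 and 0.08. Control 3 minus the mean of controls 1 and 2 was 0.34, 0.50, 0.01, 0.23 and -0.78 in the same order of genes, so among untreated libraries Creld2 went opposite to Hspa5 and Hsp90b1.

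Ratios of 2 genes within a library do not depend on its scaling. Pdia4 relative to Pdia6 was 0.321, 0.351 and 0.356 in irradiated libraries and 0.201, 0.111 and 0.233 in controls. Dnajb9 relative to Hspa5 was 0.0449, 0.0542 and 0.0496 in irradiated libraries and 0.0191, 0.0115 and 0.0341 in controls. Both ratios were higher in every irradiated library than in any control, control 3 included, and the same was seen for Dnajb1 over Hspa8, at 0.0217 to 0.024 in irradiated libraries and 0.0142 to 0.0176 in controls, and for Hspa1b over Hspa8, at 0.0268 to 0.0304 in irradiated libraries and 0.00849 to 0.0213 in controls. Pdia4, Dnajb9, Dnajb1 and Hspa1b were already without overlap on their own, so their ratios are not independent observations. The share of other gene pairs without overlap was not computed.

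The chaperonin pair gave the widest range among controls of the 7 ratios computed. Hspe1 over Hspd1 was 1.38, 1.37 and 1.27 in irradiated libraries and 2.25, 3.50 and 1.11 in controls. Hsp90aa1 over Hsp90ab1, the inducible over the constitutive HSP90, was 0.412, 0.421 and 0.407 in irradiated libraries and 0.502, 0.694 and 0.413 in controls. The irradiated libraries were nearly alike in both ratios and overlapped the controls through control 3. Hspa5 over Hsp90b1 was 0.725 to 0.776 in irradiated libraries and 0.626 to 0.721 in controls. With 3 libraries a group an exact permutation test cannot give a two-sided p below 0.1, and none was run on these ratios.

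**Figure D3:**
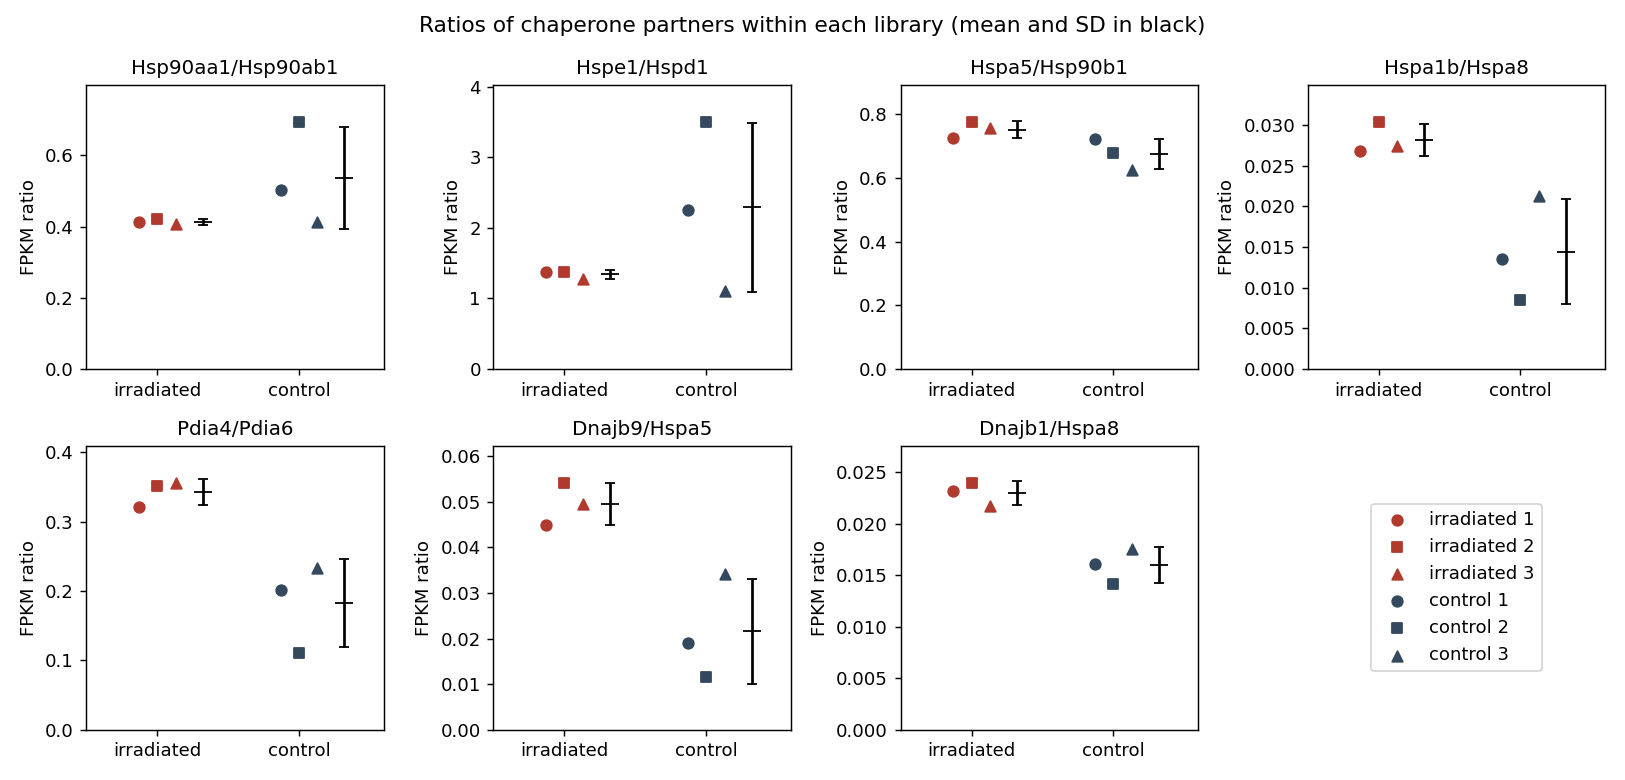
FPKM ratios of chaperone partners within each library, with the 3 irradiated libraries left and the 3 controls right in each panel, and mean and SD in black. Pdia4/Pdia6, Dnajb9/Hspa5, Hspa1b/Hspa8, Dnajb1/Hspa8 and Hspa5/Hsp90b1 do not overlap, whereas Hsp90aa1/Hsp90ab1 and Hspe1/Hspd1 do.

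Differences between libraries went along with transcript length, for chaperones as for genes at large. Across the 31 chaperones, Spearman's rho between the log2 fold change and the length of the longest transcript was 0.43, and it was 0.40 across 10930 genes. It was 0.41 and 0.43 for irradiated libraries minus controls 1 and 2, 0.37 and 0.44 for control 3 minus controls 1 and 2, and 0.00 and 0.08 for irradiated libraries minus control 3. These values describe genes measured in the same 6 libraries, which are not independent points. The 10 chaperones with the shortest transcripts (930 to 2399 bases) had a median log2 fold change of -0.24. They were Hspb1, Hspe1, Sdf2l1, Creld2, Hspb8, Herpud1, Xbp1, Pdia6, Manf and Pdia4. Against controls 1 and 2, Herpud1 and Pdia4 were positive (0.37 and 1.03) and the others negative. Control 3 was above both other controls for 4 of these 10. The 10 chaperones with the longest transcripts (3281 to 7246 bases, among them Ern1, Atf6, Sel1l and Dnajc3) had a median log2 fold change of 0.14. Hspa1b and Dnajc3 remained called after each library's trend with length and GC content was removed (log2 fold changes 0.84 and -0.91, limma adjusted p = 0.0412 and 0.0213). They were the only calls in that setting, 6.45% of the 31 chaperones against 15.0% of all genes. The part of transcript length in the differences of single chaperones was not tested further.

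**Figure D4:**
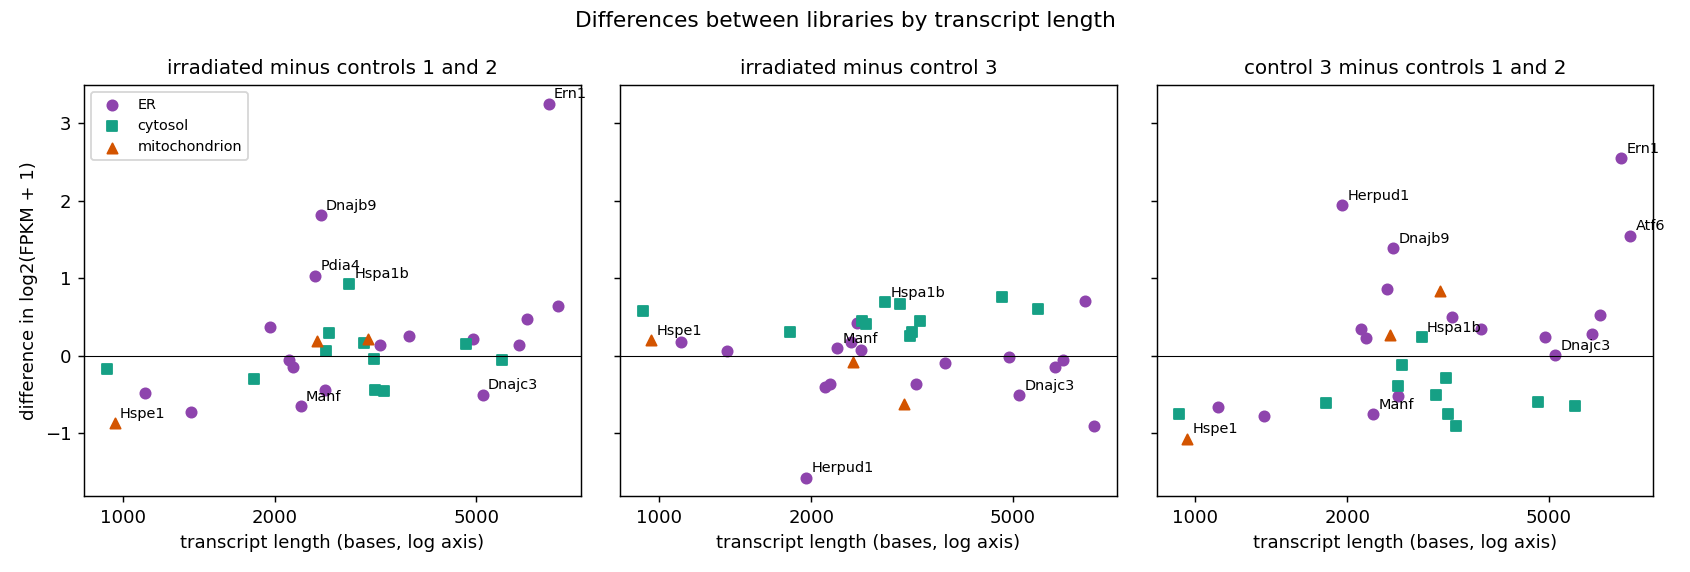
Differences in log2(FPKM + 1) against transcript length (log axis) for the 31 chaperones tested, for irradiated minus controls 1 and 2, irradiated minus control 3, and control 3 minus controls 1 and 2. Hspe1 lies low in the panels against controls 1 and 2, whereas Herpud1 and Pdia4, also among the 10 shortest, lie above 0 there. Herpud1 is the lowest point against control 3.

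Among 7 further lists of folding and quality-control genes, 121 genes were tested, of which 2 were called higher and 4 lower, 4.96% against 12.0% of all genes. In the PERK arm, 3 of 10 genes had an unadjusted p below 0.05, against 4251 of 11103 over all genes. With all libraries, 0 of the 10 passed the limma threshold. This depended on the controls: without control 3, 8 were called higher and 1 lower, and the median log2 fold change of 0.24 became 0.97, whereas it was -0.13 without control 1 and -0.12 without control 2. Over all genes, 45.8% were called higher and 23.3% lower without control 3. In this arm, trimmed-mean scaling and the length and GC correction gave 1 call each, lower, where 4.48% and 7.58% of all genes were called lower. Atf4, its main transcription factor, had 222, 228 and 237 FPKM in irradiated libraries and 353, 347 and 686 FPKM in controls (log2 fold change -0.93, SE 0.28, limma adjusted p = 0.0661). Eif2ak3, which encodes PERK, averaged 7.06 ± 0.376 FPKM in irradiated cells and 3.41 ± 1.91 FPKM in control cells (0.96, limma adjusted p = 0.0781). The sensor and the transcription factor had opposite signs, with no overlap between groups for either. Without control 3 Atf4 was called lower and Eif2ak3 higher, and after trimmed-mean scaling Atf4 was called lower.

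Among 17 other ER folding enzymes, Txndc12, a thioredoxin-fold oxidoreductase, fell to 101 ± 5.31 FPKM in irradiated cells, against 153 ± 8.93 FPKM in control cells (log2 fold change -0.59, limma adjusted p = 0.0327). Of 20 further degradation genes, Syvn1, the HRD1 ligase whose adaptor is Sel1l, rose to 20.7, 22.4 and 21.7 FPKM in irradiated libraries, against 12.6, 13.5 and 13.2 FPKM in controls (0.68, SE 0.11, limma adjusted p = 0.0186). The controls lay close together for Syvn1, unlike for Ern1 or Herpud1. Neither call held without control 1 (limma adjusted p = 0.135 for Txndc12 and 0.1 for Syvn1) or without any 1 of the irradiated libraries. With a block for the sample number both were lost too (0.101 and 0.0816). Of all genes, 1.63% were called without control 1, 0.516% to 0.911% without 1 irradiated library and 2.70% with the block. The call of Syvn1 was also lost after trimmed-mean scaling (0.05), and that of Txndc12 without control 2 (0.0636) and after quantile normalization (0.0588). Creb3l1, a membrane-bound factor related to ATF6, averaged 2.16 ± 0.37 FPKM in irradiated cells and 0.59 ± 0.0529 FPKM in control cells (SD, n = 3 each). It was 1 of 9 proteases and related factors tested and the only call among them, but it passed the filter only through the irradiated libraries. Without any filter its log2 fold change was 0.98 (limma adjusted p = 0.0123). With the filter, its call was lost without control 1 (0.0614) and with the block (0.0524).

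Outside the ER, all 14 subunits of the TRiC chaperonin and of prefoldin had negative log2 fold changes (median -0.35), and Pfdn4, a prefoldin subunit, fell to 43.5 ± 2.91 FPKM in irradiated cells, against 73.9 ± 13.8 FPKM in control cells (-0.73, limma adjusted p = 0.0416). The median of that list was -0.04 against control 3 alone, with 5 of 14 above it, and after quantile normalization only 7 of the 14 were negative, with a median of -0.06. None of 36 cytosolic partners of HSP70 and HSP90 passed in limma. The unadjusted p was below 0.05 for 11 of them, against 4251 of 11103 over all genes. Without control 3, 11 were called higher and 15 lower of 35, against 45.8% and 23.3% of all genes. Quantile normalization gave 2 higher and 1 lower, and trimmed-mean scaling and the length and GC correction 1 lower each, in all 3 Dnaja4 (limma adjusted p = 0.0171, 0.0416 and 0.024). Of all genes, quantile normalization gave 5.97% higher and 5.08% lower. Trimmed-mean scaling gave 4.48% of all genes lower, and the length and GC correction 7.58%. Dnaja4 and Hspa2 had the lowest p-values of the list, and each passed the filter through 1 group only. Without any filter their log2 fold changes were -0.50 and 0.55 (limma adjusted p = 0.0537 and 0.0728). Dnaja4 averaged 0.52 ± 0.19 FPKM in irradiated cells and 1.14 ± 0.0513 FPKM in control cells, and Hspa2 1.21 ± 0.0493 FPKM in irradiated cells and 0.523 ± 0.287 FPKM in control cells (SD, n = 3 each). Of 15 mitochondrial chaperones and proteases, Pam16, a component of the import motor, and Spg7, a subunit of the inner membrane m-AAA protease, fell by 1.01 and 0.95 on the log2 scale (limma adjusted p = 0.0473 and 0.0343). The calls of Pfdn4, Pam16 and Spg7 were lost without control 1 (limma adjusted p = 0.159, 0.164 and 0.147) and without control 2 (0.0874, 0.0689 and 0.0622). They were also lost with a block for the sample number (0.0934, 0.0805 and 0.0744) and without any 1 of the irradiated libraries. Of all genes, 1.63% and 4.96% were called without control 1 or 2, 2.70% with the block and 0.516% to 0.911% without 1 irradiated library. The call of Pfdn4 was lost without any filter. That of Pam16 was lost after trimmed-mean scaling, without any filter, with the filter at 5 FPKM and with a pseudocount of 0.1.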

How the data were processed

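RNA sequencing of 3 irradiated and 3 control libraries of SCC7 cells was used. The deposited values are FPKM per the file headers, rounded to 2 decimals. HISAT and the build GRCm38.p6 are named in the submitters' processing notes. How fragments were counted, on which annotation and with which filters, is not given in the sources used. The reads behind the values were not recovered, so depth is unknown and no count model was used. FPKM depends on the transcript length assigned and on a few abundant genes, and near-identical copies can exchange reads.

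The test, for genes reaching 1 FPKM in 3 or more libraries, was that of limma 3.58.1 (R 4.3.3) on log2(FPKM + 1) values (2 groups, no covariate, trend and robust options, two-sided, Benjamini-Hochberg over all genes tested), and called at an adjusted p below 0.05. Fold changes on this scale understate the change of low genes. The fit assumes equal variance in both groups. The procedure was tested on simulated data with the same spread in both groups. That test does not cover the unequal spread of these libraries. Means ± SD are of FPKM. Transcript length and GC content are of the longest GENCODE M21 transcript, known for 96.4% of genes.

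The members, the related lists and the tests were chosen with earlier results of these data known. All 32 members are named, and from each related list up to 3 called genes with the greatest change, or the 2 with the smallest p where none was called. Alternatives were quantile normalization, trimmed-mean scaling, a filter at 5 FPKM and none, a pseudocount of 0.1, limma's plain variance prior, a block for the sample number, a length and GC correction (splines with 4 degrees of freedom) and leaving out each library.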

Additional observations from a re-analysis of the deposited data

How the results depend on the processing

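Over 14 alternatives, 13 of the 31 chaperones were never called, and 14 not called with all libraries were called only without control 3. The log2 fold change kept 1 sign throughout for 13. Calls over all genes were 1026 higher and 308 lower, and became 663 and 564 after quantile normalization, 674 and 497 after trimmed-mean scaling, 506 higher with the filter at 5 FPKM, 828 lower after the length and GC correction, and 260 and 40 with the sample number as a block. Leaving out 1 library gave 46 to 5067 higher and 10 to 2571 lower, the top values without control 3. Chaperones called higher numbered 3 after quantile normalization (Hspa1b, Hsp90ab1 and Bag3) and 0 without any filter, after trimmed-mean scaling and with the block, and those called lower 0 without any filter, with the filter at 5 FPKM, with a pseudocount of 0.1 and with the block. Leaving out 1 library gave 0 to 8 higher and 0 to 9 lower. Of all genes, 7.86% were called without any filter, and 2.49% and 2.37% were called lower with the filter at 5 FPKM and with the pseudocount of 0.1. With the replicate block the adjusted p of Hspa1b was 0.0831 and that of Dnajc3 0.118. Same-numbered libraries correlated at -0.11, 0.02 and -0.16 in their deviations from the group means. With so few libraries these values cannot settle whether the numbers pair the libraries, and the labels do not say. ER medians were -0.23 after trimmed-mean scaling and after the length and GC correction, and -0.20 to 0.14 with 1 library left out. Mitochondrial medians were -0.27 in the same 2 settings, 0.19 after quantile normalization, and -0.23 to 0.19 with 1 library left out, and cytosolic medians -0.04 to 0.24 with 1 library left out. The median of all genes was 0.17, and -0.01, -0.01 and -0.03 after quantile normalization, trimmed-mean scaling and the length and GC correction.

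Signs turned as follows, in log2 fold changes that did not pass the test except for Herpud1 without control 3. Quantile normalization gave Hsp90b1 0.37, Atf6 -0.16, Pdia6 0.08, Edem1 -0.29, Hspa8 0.36, Hsp90aa1 0.29, Hspb1 -0.07, Hspb8 0.10 and Hspa9 0.19. Trimmed-mean scaling gave Hspa5 -0.07, Atf6 -0.06, Hyou1 -0.05, Edem1 -0.14, Hsp90ab1 -0.01, Dnaja1 -0.03, Hspb1 -0.11, Hsf1 -0.14 and Hspd1 -0.10. The length and GC correction gave Hspa5 -0.15, Atf6 -0.36, Hyou1 -0.15, Edem1 -0.39, Sel1l -0.13, Hsph1 0.00, Dnaja1 -0.29, Hsf1 -0.06 and Hspd1 -0.01. Without control 1, Atf6 was at -0.12 and Hspb8 at 0.04. Without control 2, Hspa5 was at -0.03, Atf6 -0.15, Edem1 -0.07, Hsp90aa1 0.15 and Hspd1 -0.07. Without control 3, Hsp90b1 was at 0.14, Herpud1 0.37, Dnaja1 -0.05, Hspb1 -0.17, Hsf1 -0.04 and Hspa9 0.21. The ranges with 1 library left out were -0.03 to 0.25 for Hspa5, -0.15 to 0.64 for Atf6, -0.72 to 0.37 for Herpud1, -0.46 to 0.15 for Hsp90aa1, -0.05 to 0.32 for Dnaja1, -0.30 to 0.04 for Hspb8 and -0.04 to 0.16 for Hsf1. The cause of these turns was not tested. Library weights were not used: their estimation did not converge and gave control 1 a weight of 990 and the other libraries 0.028 to 1.16.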
